A study of Mus musculus with 6 samples.

Results

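The septins are a family of GTP-binding proteins, and 10 of their genes, Septin2 to Septin11, were followed among the 27179 gene identifiers counted in germinal vesicle oocytes of the mouse, which are fully grown and still arrested in the first meiotic prophase. Septin11 was chosen because its transcript had the largest fall without Prdm10 among tested genes with a mean of at least 10 CPM (the count scaled to the normalized size of its library) in a genotype, so its difference between genotypes is given as a description with no test. The other 9 were chosen by family name, and their difference between genotypes was tested. All 10 were present in the count tables, and 7 had enough counts to test, Septin4, Septin5 and Septin8 being too scarce. Septin1, Septin12 and Septin14, the other septin genes in the tables, are given beside them.

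PRDM10 is a zinc finger transcription regulator. Knockout oocytes carried a floxed exon 5 of Prdm10, removed by Zp3-cre, a Cre recombinase under a promoter that is active in growing oocytes, and the other group was labelled wildtype. There were 3 libraries a group, each made from roughly 10 pooled oocytes. Strain and age are not stated in the sources used here. The replicates are labelled biological, with no word on whether they came from separate mice, so p-values measure only how these pools varied.

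Septins join end to end into rods and filaments that lie under the cell membrane, act as scaffolds for actin and myosin and form barriers in the membrane, and they take part in cytokinesis, of which the extrusion of the polar body by the oocyte is an unequal form. Rods are built from members of different subgroups, each with its own place. The SEPT2 subgroup holds Septin1, Septin2, Septin4 and Septin5, the SEPT3 subgroup Septin3, Septin9 and Septin12, the SEPT6 subgroup Septin6, Septin8, Septin10, Septin11 and Septin14, and Septin7 stands alone in its own. Within a subgroup members are held to be able to take each other's place, whereas Septin7 has no such relative.

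Total counts lay between 22492228 and 38831227 per library, and 1 count was worth 0.0258 to 0.0445 CPM before scaling. Wildtype replicate 1 stood apart from the rest, with Spearman correlations across genes of 0.976 and 0.975 with the other wildtype libraries, which correlated at 0.996 with each other. Several results that rest on it are also given without it. Prdm10 itself had 2.80, 3.82 and 3.05 CPM in knockout replicates 1 to 3 and 10.4, 23.1 and 23.0 CPM in wildtype replicates 1 to 3, a count over the whole gene and not only the deleted exon. Oocyte markers (Zp3, Gdf9, Bmp15 and 9 others) summed to 26706 to 28441 CPM in knockout and 23480 to 28145 CPM in wildtype libraries, and none of the 12 passed the test. The lists of other cell types were low: granulosa and cumulus markers summed to 81.1 to 94.2 CPM in knockout and 89.5 to 96.4 CPM in wildtype libraries, and theca and stroma markers to 6.98 to 19.4 and 5.08 to 21.97 CPM, with 0 of 13 and 0 of 4 tested members passing. Of 5 tested markers of blood, immune and endothelial cells Cd68, which encodes a lysosomal membrane protein, rose (log2 fold change 2.28, edgeR adjusted p = 0.0108). That list summed to 133 to 134 CPM in knockout and 47.7 to 100.2 CPM in wildtype libraries, most of it Pecam1. Of the 14 granulosa and cumulus markers only 1, Ptx3, had 0 counts in all libraries. Of the 12 blood, immune and endothelial markers 2 did, Hba-a1 and Cdh5. Whether other cells were carried over was not tested.

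To show how far the counts of Septin11 can be told from those of its relatives, the stretch of coding sequence around the longest run of identical bases that Septin11 shares with a paralogue is printed here. It lies in exon 7 of 11 of a Septin11 transcript (GRCm38 chr5:93162127-93162192, plus strand, GENCODE release M21), at coding positions 788 to 853. Below it stands the best ungapped match in the relatives of its subgroup and of Septin3, 5′ to 3′, with bases that differ from Septin11 in capitals.
Septin11: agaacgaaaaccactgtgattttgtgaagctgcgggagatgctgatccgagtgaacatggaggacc
Septin8: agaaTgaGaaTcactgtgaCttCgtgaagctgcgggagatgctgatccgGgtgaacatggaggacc
Septin6: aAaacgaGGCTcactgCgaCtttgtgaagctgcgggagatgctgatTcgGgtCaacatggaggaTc
Septin10: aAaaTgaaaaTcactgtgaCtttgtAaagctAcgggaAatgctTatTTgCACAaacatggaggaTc
Septin14: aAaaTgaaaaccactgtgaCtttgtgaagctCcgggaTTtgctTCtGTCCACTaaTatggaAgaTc
Septin3: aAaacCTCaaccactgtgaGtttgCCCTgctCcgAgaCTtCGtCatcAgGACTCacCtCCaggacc
The longest run of identical coding bases was 26 with Septin6 and with Septin8, 20 with Septin10 and 18 with Septin14, and it was between 9 and 15 with the 8 septins of the other subgroups. Over these 66 bases Septin8 differed from Septin11 at 6, Septin6 at 11, Septin10 at 15, Septin14 at 18 and Septin3, of another subgroup, at 25 positions. Over whole transcripts a run of 34 bases was shared with Septin3, not within the coding sequence of both. Aligned coding identity with Septin11 was 75.7% for Septin6, 75.4% for Septin8, 72.3% for Septin10 and 68.6% for Septin14. Septin3 shared runs of up to 33 coding bases with Septin9, its closest relative at 74.3% identity. Only exact runs and aligned identity were measured, and longer stretches with a few mismatches were not sought. In the window above, the run of 26 bases shared with Septin8 is followed by a differing base and then by identical bases to the window's end. The read length is not given in the sources used here.

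Septin11 (Entrez 52398, GRCm38 chr5:93090995-93182368), a filament-forming septin of the SEPT6 subgroup, went from a common transcript to a trace. Its counts were 2091, 2177 and 1720 in wildtype replicates 1 to 3 and 24, 24 and 29 in knockout replicates 1 to 3. Scaled to library size these were 50.2, 83.9 and 78.7 CPM against 0.707, 0.641 and 0.768 CPM. Each wildtype library lay far above each knockout library, and wildtype replicate 1 was the lowest of its group. The knockout libraries held 0.997%, 0.904% and 1.08% of the wildtype mean and were close to one another. The fitted log2 fold change was -6.64 (SE 0.269), a 99.9-fold fall with a 95% interval of 64.9 to 154, and it was -6.84 without wildtype replicate 1. The trace that remained was a smaller share of the wildtype level than that of Prdm10, at 3.22 ± 0.533 against 18.8 ± 7.29 CPM (SD, n = 3 each).

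**Figure D1:**
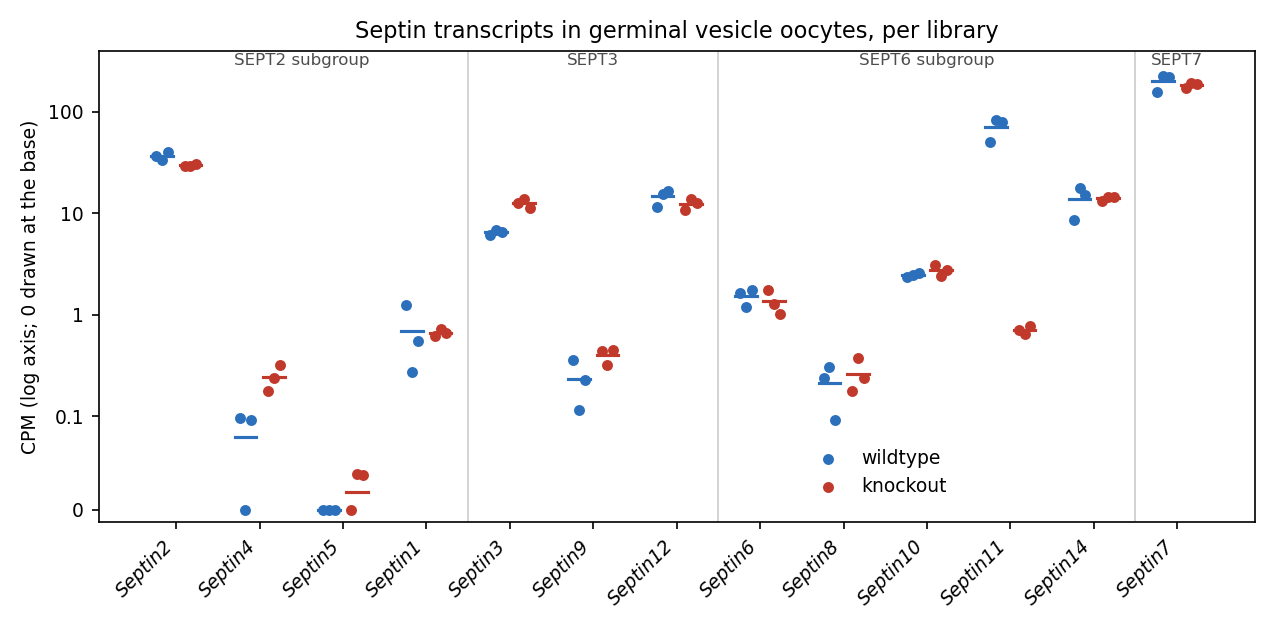
CPM of each of the 13 septin genes (log axis, 0 drawn at the base) in the 3 wildtype (blue) and 3 knockout (red) libraries, with a bar at each mean and genes ordered by subgroup. Septin11 falls from 50.2 to 83.9 CPM to under 1 CPM, Septin3 lies higher in all knockout libraries, and Septin7, the most abundant, overlaps between the groups.

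The gene end of Septin11 overlaps that of Ccni, which encodes cyclin I, by 436 bases in RefSeq. The genes lie on opposite strands, and in GENCODE their exons share 0 bases. Ccni had 31.6, 28.1 and 27.5 CPM in wildtype replicates 1 to 3 and 20.98, 22.04 and 23.2 CPM in knockout replicates 1 to 3. Its log2 fold change was -0.40 (SE 0.123, edgeR adjusted p = 0.0784), with no overlap between the groups, and without wildtype replicate 1 it passed the test at -0.33 (edgeR adjusted p = 0.0155). How reads of the overlap were counted is not known, since the annotation and strand setting of the counting are not given. The nearest tested gene on the other side, Shroom3, which encodes an actin-binding protein of cell shape, lies 125 kb away and had 29.2 ± 1.92 CPM in wildtype and 29.8 ± 5.15 CPM in knockout oocytes (SD, n = 3 each; log2 0.03, edgeR adjusted p = 0.92). The next tested gene on that side, Ccdc158, lies 416 kb away and rose, with 25.7, 28.2 and 27.8 CPM in wildtype and 82.6, 87.3 and 85.3 CPM in knockout replicates 1 to 3 (log2 1.64, edgeR adjusted p = 0.00033). Of the 4 tested neighbours of Septin11, 2 on each side, it was the 1 that passed.

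The promoter of Septin11 is printed beside those of Septin10 and Septin14, the relatives of its subgroup that were tested and have 1 entry in the RefSeq promoter table (build GRCm38.p6), because their transcripts did not share its fall. Each runs from 250 bases before to 50 after the start site, at chr5:93093166-93093465 (plus strand), chr10:59221451-59221750 (minus) and chr5:129704935-129705234 (minus). The Septin11 window lies inside the gene's RefSeq interval, which begins at chr5:93090995, so its start site is not at the interval's outer end. The start sites of Septin10 and Septin14 are at the outer ends of their intervals. Motifs were searched on both strands, namely CACGTG (the E-box of bHLH-ZIP factors), GGGCGG (the GC box of SP factors), TATAAA and CCAAT, and every match is in capitals.
Septin11: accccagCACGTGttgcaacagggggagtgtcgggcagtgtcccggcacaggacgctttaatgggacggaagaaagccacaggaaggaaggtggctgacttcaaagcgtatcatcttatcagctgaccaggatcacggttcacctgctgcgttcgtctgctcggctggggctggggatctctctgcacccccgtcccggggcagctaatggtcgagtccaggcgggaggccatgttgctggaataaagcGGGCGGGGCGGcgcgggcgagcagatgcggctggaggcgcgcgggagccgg
Septin10: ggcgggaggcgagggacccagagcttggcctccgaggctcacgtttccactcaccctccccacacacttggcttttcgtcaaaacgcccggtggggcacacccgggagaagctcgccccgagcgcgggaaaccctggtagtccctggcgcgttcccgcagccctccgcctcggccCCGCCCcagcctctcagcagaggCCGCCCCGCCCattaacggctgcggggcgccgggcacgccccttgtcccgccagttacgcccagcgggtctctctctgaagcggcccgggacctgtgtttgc
Septin14: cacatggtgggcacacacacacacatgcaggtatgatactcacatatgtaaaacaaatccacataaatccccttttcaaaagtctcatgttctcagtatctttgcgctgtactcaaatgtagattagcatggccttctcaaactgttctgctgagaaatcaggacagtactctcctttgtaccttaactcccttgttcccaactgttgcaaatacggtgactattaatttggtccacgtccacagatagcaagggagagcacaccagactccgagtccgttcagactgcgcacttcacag
The Septin11 window held CACGTG once, 243 bases before the start site, and GGGCGG at 2 overlapping places next to the start site. In the whole promoter set CACGTG was held by 7.15% of all 32851 promoter windows and GGGCGG by 35.7%, on either strand. Of the 9 septins with an entry, Septin7 was the only other with CACGTG, in 1 of its 2 windows, 249 bases before the start site. Septin10 held GGGCGG at 3 places and Septin14 none of the motifs, and TATAAA was in none of the windows of these 9 genes. GC content was 64.3% for Septin11, 71.0% for Septin10 and 44.7% for Septin14, with 25, 30 and 6 CpG dinucleotides. These matches describe the letters only, since binding was not measured, and no PRDM10 motif was searched.

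Of the 9 paralogues in the family, 6 were tested, and 1, Septin3, passed the test, higher in the knockout. Over all 14957 tested genes 11.2% passed, 5.87% higher and 5.34% lower, so that 1 of 6 is not far from the background. The median log2 fold change of the 6 was 0.02, beside -0.00248 over all tested genes. Groups did not overlap for 2 of the 6, Septin3 and Septin2, against 40.2% of tested genes. Unadjusted p was under 0.05 for the same 2.

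Septin3 (Entrez 24050, chr15:82268802-82294574), a septin of the SEPT3 subgroup best known from neurons, rose 1.94-fold. Its counts were 256, 176 and 143 in wildtype replicates 1 to 3 and 425, 521 and 426 in knockout replicates 1 to 3. On the CPM scale these were 6.15, 6.78 and 6.54 against 12.5, 13.9 and 11.3. Each knockout library lay above each wildtype library, and wildtype replicate 1 lay close to the other wildtype libraries. The log2 fold change was 0.96 (SE 0.148, 95% interval 0.61 to 1.30, edgeR adjusted p = 0.00903) and 0.91 without wildtype replicate 1 (edgeR adjusted p = 0.000435). The call was lost without knockout replicate 1 (log2 0.96, edgeR adjusted p = 0.0513) or knockout replicate 2 (0.85, edgeR adjusted p = 0.0689), each with 1 library fewer. In those fits 380 of 15328 and 357 of 15191 genes passed. The RefSeq gene that overlaps Septin3, a long noncoding RNA named Gm52180, was not counted.

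The other members of the SEPT3 subgroup did not pass. Septin9, a septin of many somatic tissues, was almost absent, with 15, 3 and 5 counts in wildtype replicates 1 to 3 and 15, 12 and 17 in knockout replicates 1 to 3. Its log2 fold change was 0.70, with a 95% interval of -0.33 to 1.73 (edgeR adjusted p = 0.336). Septin12, best known from sperm, had 11.6, 15.6 and 16.7 CPM in wildtype and 10.8, 14.0 and 12.5 CPM in knockout replicates 1 to 3. The groups overlapped, and the log2 fold change was -0.23 (95% interval -0.65 to 0.19, edgeR adjusted p = 0.429). Without wildtype replicate 1 it was -0.38 and passed (edgeR adjusted p = 0.0378).

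None of the tested relatives of Septin11 in its own SEPT6 subgroup passed the test. Septin14, a septin of the testis, was the most abundant of them, with 8.62, 17.6 and 15.2 CPM in wildtype and 13.4, 14.5 and 14.6 CPM in knockout replicates 1 to 3. The knockout libraries fell within the wildtype range, and the log2 fold change was 0.04 (95% interval -0.53 to 0.62, edgeR adjusted p = 0.928). It was -0.21 without wildtype replicate 1, the lowest library (edgeR adjusted p = 0.156). Septin10 had 2.38, 2.47 and 2.56 CPM in wildtype and 3.09, 2.43 and 2.73 CPM in knockout replicates 1 to 3, with overlapping groups and a log2 fold change of 0.16 (95% interval -0.28 to 0.59, edgeR adjusted p = 0.606). Septin6, the member after which the subgroup is named, had 1.63, 1.19 and 1.74 CPM against 1.77, 1.28 and 1.01 CPM, also overlapping, with a log2 fold change of -0.17 (95% interval -0.84 to 0.49, edgeR adjusted p = 0.717). Septin8 had 10, 8 and 2 counts in wildtype and 6, 14 and 9 in knockout replicates 1 to 3 and was not tested. The upper ends of these intervals correspond to 1.54-fold for Septin14, 1.51-fold for Septin10 and 1.404-fold for Septin6, so smaller rises cannot be told from none in these libraries.

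**Figure D2:**
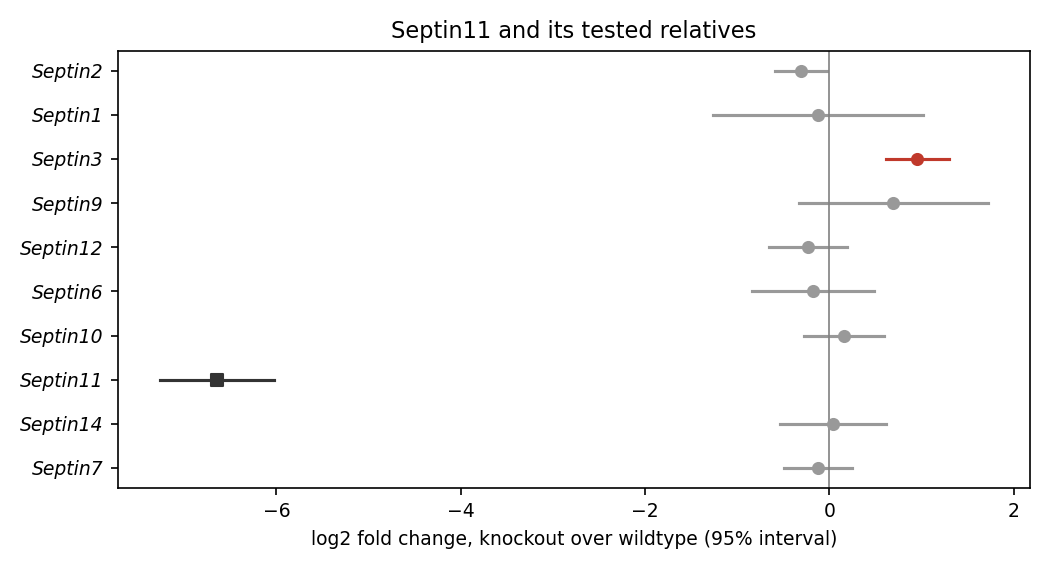
Fitted log2 fold change, knockout over wildtype, with its 95% interval for the 10 septins with enough counts to test. Septin11 (black square, a description) lies at -6.64, Septin3 (red, past an adjusted p of 0.05) at 0.96, and the others (grey, not past it) between -0.30 and 0.70.

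Septin7 (Entrez 235072, chr9:25251991-25308571), a core subunit of septin rods, was the most abundant septin in every library. It had 155, 223 and 220 CPM in wildtype replicates 1 to 3 and 173, 190 and 187 CPM in knockout replicates 1 to 3. The knockout libraries lay between wildtype replicate 1 and the other wildtype libraries, so the groups overlapped, and the log2 fold change was -0.12 (95% interval -0.49 to 0.25, edgeR adjusted p = 0.647). Without wildtype replicate 1 every knockout library lay below both remaining wildtype libraries, and Septin7 passed the test, with a log2 fold change of -0.27 (edgeR adjusted p = 0.00505).

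Septin2 (Entrez 18000, chr1:93478981-93509733), a septin of the contractile ring and the main member of its subgroup in these oocytes, had 36.3, 33.3 and 40.2 CPM in wildtype and 29.3, 29.0 and 30.5 CPM in knockout replicates 1 to 3. Each knockout library lay below each wildtype library. The log2 fold change was -0.30 (SE 0.123, edgeR adjusted p = 0.15) and did not pass. It was -0.31 without wildtype replicate 1 and then passed (edgeR adjusted p = 0.0288). In that fit 34.4% of 15104 genes passed, and 3 of 7 tested paralogues did, Septin3 higher and Septin2 and Septin7 lower. Septin1 of the same subgroup, overlapped by Mylpf and Gm4532, had 52, 7 and 12 counts in wildtype and 21, 27 and 25 in knockout replicates 1 to 3 (log2 -0.12, edgeR adjusted p = 0.896). Wildtype replicate 1 alone was high, and without it the log2 fold change was 0.73 (edgeR adjusted p = 0.197). Septin4, the septin of the sperm annulus, had 4, 0 and 2 counts in wildtype and 6, 9 and 12 in knockout libraries, and Septin5, a septin of platelets and neurons, had 0 counts in all wildtype libraries and 0, 1 and 1 in knockout libraries. Both are at the limit of detection, and neither was tested.

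Levels of different septins were compared per length, as CPM divided by the kilobases of the longest GENCODE transcript linked to the gene's Entrez number. For Septin7 that transcript, of 4569 bases, is a retained intron, and its longest coding transcript has 2533 bases. A transcript of Septin2 of 3779 bases has no such link, and the linked one has 3267. In wildtype oocytes the order was Septin7 (43.7 ± 8.41 CPM per kb), Septin11 (14.1 ± 3.603), Septin2 (11.2 ± 1.06), Septin14 (8.41 ± 2.83), Septin12 (5.69 ± 1.04), Septin3 (1.30 ± 0.0639), Septin10 (0.975 ± 0.0364), Septin1 (0.464 ± 0.339) and Septin6 (0.326 ± 0.0618; SD, n = 3 for each), with Septin9, Septin8, Septin4 and Septin5 under 0.05. The libraries of Septin7 (34.0 to 48.9) lay above all of Septin11 (9.99 to 16.7), and the libraries of Septin12, Septin3, Septin10 and Septin1 did not overlap from 1 of these genes to the next. From Septin11 to Septin2, Septin14 and Septin12 each gene overlapped the next, as did Septin1 and Septin6. With the union of a gene's exons as the length, Septin2 (10.98 ± 1.04) and Septin14 (7.94 ± 2.67) came before Septin11 (7.49 ± 1.91), so the rank of Septin11 depends on the transcript ends assumed. With the longest coding transcript, a length chosen after the data were seen, Septin7 was at 78.8 ± 15.2 and Septin2 at 9.69 ± 0.918 CPM per kb (SD, n = 3 each), with Septin7 again first and Septin11 second. Septin7 reached the 86.8th and Septin11 the 68.6th percentile of tested genes on the first scale. In knockout oocytes Septin11 ranked 9 of 13 at 0.140 ± 0.0126 CPM per kb, below Septin6 at 0.289 ± 0.0825 (SD, n = 3 each).

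Summed per length over the 10 members, the family held 57.8, 78.4 and 79.0 CPM per kb in wildtype and 51.4, 55.0 and 54.3 CPM per kb in knockout replicates 1 to 3. No knockout library reached the lowest wildtype library on this length. With the longest coding transcript the groups overlapped, at 83.6, 116.4 and 116.1 against 80.7, 87.3 and 86.0 CPM per kb. Septin11 made up 19.5 ± 2.02% of the sum in wildtype and 0.262 ± 0.0265% in knockout oocytes, and Septin3 1.84 ± 0.254% and 4.71 ± 0.480% (SD, n = 3 each). The shares of Septin11 were 13.3 ± 1.21% and 0.166 ± 0.0173% with the longest coding transcript (SD, n = 3 each). Over all 13 septins, on the longest linked transcript, they were 16.2 ± 1.46% in wildtype and 0.208 ± 0.0222% in knockout oocytes (SD, n = 3 each). With Septin11 left out of the 10 members, the sum was 57.6 ± 8.54 CPM per kb in wildtype and 53.4 ± 1.90 in knockout oocytes, with the knockout libraries inside the wildtype range of 47.8 to 63.3. These sums rest on members picked with the fall of Septin11 known and are given without a test. In bulk samples less RNA per cell and fewer cells with the transcript cannot be told apart.

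The make-up of the SEPT6 subgroup changed as well. Septin11 held 90.9 ± 2.43% of the per-length sum of Septin6, Septin8, Septin10 and Septin11 in wildtype and 8.98 ± 1.15% in knockout oocytes (SD, n = 3 each). The sum of the other 3 was 1.35 ± 0.0537 CPM per kb in wildtype and 1.43 ± 0.179 in knockout oocytes, with libraries that overlapped. Once Septin14 was counted too, Septin11 held 59.3 ± 1.08% of the subgroup in wildtype and 1.38 ± 0.122% in knockout oocytes, and Septin14 34.7 ± 2.87% and 84.5 ± 2.17%. The level of Septin14 itself was 8.41 ± 2.83 CPM per kb in wildtype and 8.62 ± 0.427 in knockout oocytes (SD, n = 3 each). The subgroup's sum with Septin14 was 23.9 ± 6.42 CPM per kb in wildtype and 10.2 ± 0.253 in knockout oocytes. With the union of exons as the length, Septin11 held 45.9 ± 1.41% and Septin14 47.8 ± 3.35% of the subgroup in wildtype oocytes (SD, n = 3 each). Which of them held more in wildtype oocytes thus depended on the length.

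**Figure D3:**
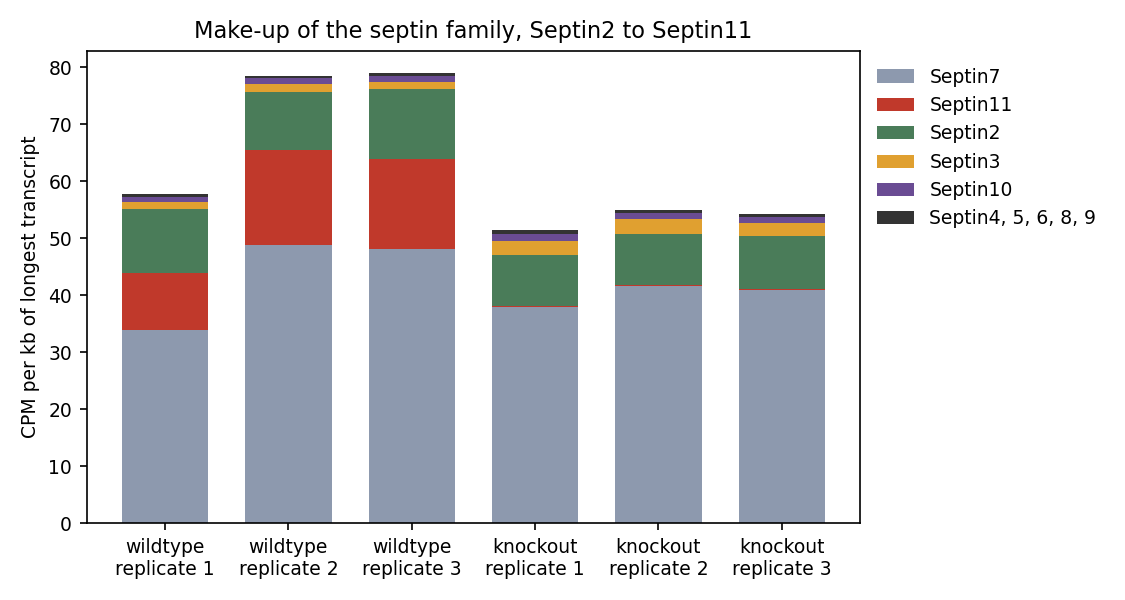
CPM per kb of the longest linked transcript for Septin2 to Septin11, stacked for each library. The red block of Septin11, 17.3 to 21.3% of the bar in wildtype libraries, is below 0.3% in the knockout libraries, and Septin7 makes up 58.8 to 75.8% throughout.

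The genes whose profile over the 6 libraries came nearest to that of Septin11 were sought among 8242 protein-coding genes, clone names left out, whose mean reached 10 CPM in either genotype, by the root mean square difference of log2 values centred on each gene's mean. The 5 nearest were Ube2a, a ubiquitin-conjugating enzyme (0.37), Selenow, a small selenoprotein (0.50), Madd, an exchange factor for RAB3 (0.70), Ptov1 (0.70) and Nmral1 (0.71). Ube2a had 332, 319 and 336 CPM in wildtype and 8.87, 6.92 and 7.15 CPM in knockout replicates 1 to 3, and Nmral1 15.0, 16.0 and 18.7 against 0.354, 0.214 and 0.185 CPM. With 3 libraries a genotype the measure is set mainly by the size of the fall, and Septin11 fell further than each of the 5, whose log2 fold changes lay between -6.04 and -4.92. Without wildtype replicate 1, 4 of the 5 were again among the 5 nearest, all but Ptov1.

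**Figure D4:**
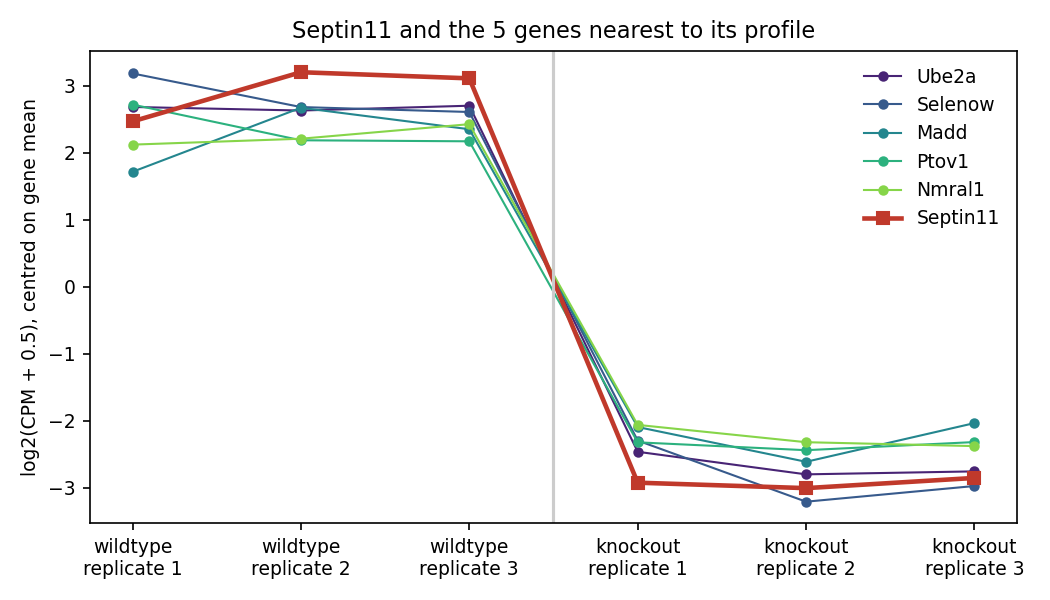
log2(CPM + 0.5), centred on each gene's mean, for Septin11 (red squares) and the 5 genes nearest to it, in each library; lines only join the points of a gene. All 6 genes lie above their mean in the wildtype and below it in the knockout libraries, and in wildtype replicate 1 Septin11, Madd and Nmral1 are lowest of their group while Selenow and Ptov1 are highest.

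Genes that act with septins mostly did not pass. CDC42 and its effectors of the CDC42EP (BORG) family bind septins and organise their filaments. Of these 6 genes 1 rose and 0 fell, with a median log2 fold change of 0.08. Cdc42ep4 had 1.97, 1.62 and 2.47 CPM in wildtype and 5.54, 4.60 and 3.44 CPM in knockout replicates 1 to 3, with no overlap (log2 1.17, SE 0.252, edgeR adjusted p = 0.0275). Cdc42 itself, at 350 ± 86.8 CPM in wildtype and 390 ± 16.1 CPM in knockout oocytes (SD, n = 3 each), had a log2 fold change of 0.15 (edgeR adjusted p = 0.614). The call of Cdc42ep4 was lost without any 1 of the knockout libraries and without wildtype replicate 2. Fewer of all genes passed in those fits too, as given below.

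Of 17 genes of the contractile ring and the spindle midzone, where septins work with anillin and myosin, 16 were tested, 2 fell and 0 rose, with a median log2 fold change of -0.03. Myl12b, a regulatory light chain of nonmuscle myosin, had 27.95, 21.5 and 20.3 CPM in wildtype and 12.6, 13.5 and 13.7 CPM in knockout replicates 1 to 3 (log2 -0.81, SE 0.158, edgeR adjusted p = 0.0192). Aurkb, the kinase of the chromosomal passenger complex, had 29.2, 42.8 and 46.7 against 24.3, 21.9 and 22.8 CPM (log2 -0.78, SE 0.185, edgeR adjusted p = 0.0357). In both genes the groups did not overlap. Anln, the anillin that ties septins to the ring, was abundant, with 134, 234 and 231 CPM in wildtype and 208, 220 and 228 CPM in knockout replicates 1 to 3, and did not pass (log2 0.13, edgeR adjusted p = 0.705). Without wildtype replicate 1, 2 genes of the list rose and 5 fell, and without any 1 knockout library 0 passed, and without wildtype replicate 2 or 3 only 1 did. How many of all genes passed in these fits is given below.

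Of 13 genes of actin assembly 1 fell and 0 rose, with a median log2 fold change of 0.10. Diaph3, a formin that nucleates straight actin filaments, had 41.6, 42.1 and 37.3 CPM in wildtype and 25.7, 27.9 and 30.1 CPM in knockout replicates 1 to 3, with no overlap (log2 -0.53, SE 0.124, edgeR adjusted p = 0.0344). Without wildtype replicate 1, 3 of the 13 rose and 2 fell, and 0 passed without any 1 of the other libraries. Of 9 genes for subunits of the exocyst, which tethers vesicles at the membrane and has been found with septins, 8 were tested and 0 passed in edgeR's quasi-likelihood test. DESeq2 also called 0 of them, and 1 of the 8 had an unadjusted p under 0.05. The smallest p values were those of Exoc5 (log2 0.74, edgeR adjusted p = 0.123) and Exoc3 (log2 -0.17, edgeR adjusted p = 0.393). Without wildtype replicate 1, 1 exocyst gene rose and 3 fell. Each of these lists has to be read against the 11.2% of all tested genes that passed, and against 34.4% without wildtype replicate 1. Without knockout replicate 1, 2 or 3, 380 of 15328, 357 of 15191 and 400 of 15148 genes passed, respectively. Without wildtype replicate 2 or 3, 910 of 15430 and 927 of 15394 genes passed. The low counts of the lists in those fits have to be read against these.

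**Figure D5:**
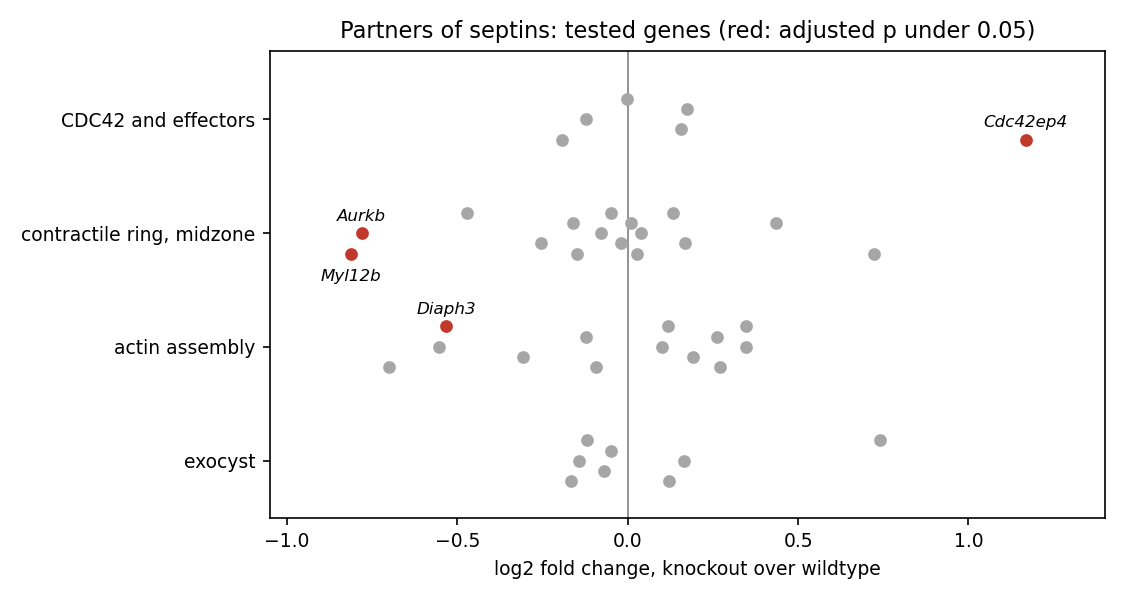
Fitted log2 fold change, knockout over wildtype, of each tested gene in 4 lists of genes that act with septins; the vertical place within a list has no meaning. Cdc42ep4 (1.17), Aurkb (-0.78), Myl12b (-0.81) and Diaph3 (-0.53), in red, passed an adjusted p of 0.05, and the other tested members, in grey, did not.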

How the data were processed

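RNA was measured in 3 knockout and 3 wildtype pools of oocytes, grouped by the labels. Extraction used the PicoPure kit, per the labels' protocols, and libraries were made with the SMARTer Ultra Low Input and NexteraXT kits and sequenced single-end. The deposited values are raw counts of reads per Entrez gene, 1 table a library, made by the authors with STAR 2.7.11a and featureCounts 2.0.3 on GRCm38.p6 (mm10), per the submitters' processing notes. The sources used here do not give the annotation, strand setting or treatment of multiply mapping reads.

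Of 27179 identifiers 25275 were named from the RefSeq table and 18 from GENCODE release M21. Genes were filtered with filterByExpr (minimum count 10), scaled by TMM and tested in R 4.3.3 by the quasi-likelihood F test of edgeR 4.0.16, with Benjamini-Hochberg adjustment over all 14957 tested genes. A gene passed at an adjusted p under 0.05. The standard error is the absolute log2 fold change over the square root of F, and 95% intervals use the test's degrees of freedom. The fit was tested on simulated counts for 13671 genes in this comparison and recovered 61% of 2-fold and 100% of 4-fold changes, with 8 false calls. The simulated counts had the same relative spread for every gene and no outlying library such as wildtype replicate 1. The shares recovered therefore check the fit and do not describe its power in these libraries. Alternatives were other scalings and filters, DESeq2 1.42.0, limma-voom (limma 3.58.1), a replicate block and leaving out each library. No 2 libraries agreed within sampling noise.

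Named genes were the septins, genes that overlap Septin1, Septin3 and Septin11, the 5 nearest profiles (pseudocount 0.5 CPM), Prdm10 and, from each list, the called members or the 2 smallest p values. Of the genes that overlap other septins only Gm15008, by Septin6, was tested, and it did not pass (log2 -0.11, edgeR adjusted p = 0.874). Anln, Cdc42, the neighbours and the marker genes were added for context after their values were seen. The members and lists were chosen with earlier results of these data known.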

Additional observations from a re-analysis of the deposited data

How the results depend on the processing

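Septin11 kept its fall under all 14 alternatives, with log2 fold changes from -6.84 to -6.51. Septin3 was higher in all 14 (0.85 to 1.02) and passed in 12. The number of paralogues passing, 1 in the reported fit, ranged from 0 to 3 with 1 library left out, being 3 without wildtype replicate 1, and was 1 under every other alternative. The number of genes passing, 1676, was 1038 with a filter of 5 CPM in 3 libraries, 2671 with DESeq2, 537 with the replicate block, and 357 to 5199 with 1 library left out, the highest without wildtype replicate 1. The share of calls that were higher, 52.4%, was 49.4 to 59.6% under the other scalings and filters. With 1 library left out the lists gave 0 to 1 (CDC42 and effectors, reported 1), 0 to 7 (contractile ring, reported 2), 0 to 5 (actin assembly, reported 1) and 0 to 4 (exocyst, reported 0) genes. CDC42 and effectors had 0 calls with the stricter filter, where 3 were tested, and actin assembly 2 with DESeq2. The sign of the log2 fold change turned for Septin1 with limma-voom (0.093), the replicate block (0.080) and without wildtype replicate 1 (0.73, from -0.49 to 0.73 with 1 library left out), and for Septin14 without wildtype replicate 1 (-0.21, from -0.21 to 0.25); neither passed in any of these fits, and the cause was not tested.

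The labels give both genotypes replicates 1 to 3 without saying that same numbers are pairs, and the reported fit did not pair them. Deviations of same-numbered libraries correlated across genes at -0.18, -0.11 and -0.13. These values cannot decide on pairing, because the outlying wildtype replicate 1 sets the wildtype deviations. Knockout replicate 1 had -0.18 with wildtype replicate 1 and 0.18 and 0.16 with wildtype replicates 2 and 3. With the replicate block Septin3 had an adjusted p of 0.0457 (edgeR), and CDC42 and effectors, contractile ring and actin assembly had 0 calls each. The share of Septin11 in the family moved by less than 1 SD with exon-union lengths and with any 1 library of the group left out. With the longest coding transcript, an alternative chosen after seeing the data that shortens Septin7, it was 13.3% in wildtype and 0.166% in knockout oocytes. The share of Septin11 in the SEPT6 subgroup with Septin14, 59.3% in wildtype oocytes, was 45.9% with exon-union lengths. Depth limits Septin4, Septin5, Septin8 and Septin9, which had at most 17 counts in a library.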

Other observations

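Of the 52 tested genes nearest to the 13 septins, 2 on each side, 10 passed the test, 4 higher and 6 lower, beside 11.2% of all tested genes. Of the 4 that rose, Tmc6 lies 404 kb from Septin9 (log2 3.63, edgeR adjusted p = 0.00349) and BB019430 437 kb from Septin10 (2.36, edgeR adjusted p = 0.0059). Ccdc158 lies 416 kb from Septin11 (1.64, edgeR adjusted p = 0.00033) and Ano7 74.7 kb from Septin2 (1.30, edgeR adjusted p = 0.0246). Tmc6, BB019430 and Ano7 had means under 4 CPM in both genotypes. Of the 6 that fell, 2 are not described next. Sec14l1 lies 40.4 kb from Septin9 (-0.71, edgeR adjusted p = 0.0154) and A430108G06Rik 15.0 kb from Septin8 (-1.24, edgeR adjusted p = 0.0478). Septin6 (chrX:36911272-36990036) lies 27.1 kb from Ube2a and 7.81 kb from Nkrf, a repressor of NF-kappa-B targets, and both neighbours fell, Ube2a by 5.43 on the log2 scale (edgeR adjusted p = 9.85e-06) and Nkrf from 18.3 ± 7.56 to 8.44 ± 0.831 CPM (SD, n = 3 each; log2 -1.12, edgeR adjusted p = 0.0391), while Septin6 did not pass. Beside Septin3, Cenpm, a protein of the centromere, lies 24.0 kb away and fell (log2 -0.59, edgeR adjusted p = 0.0274), opposite in sign to Septin3. Next to Septin10, Sh3rf3 lies 2.71 kb away and fell (log2 -0.67, edgeR adjusted p = 0.0394). Without wildtype replicate 1 the log2 fold change was smaller in size for Nkrf (-0.73), Cenpm (-0.48), Sh3rf3 (-0.53), Ano7 (1.10) and BB019430 (2.02). It was larger in size for Tmc6 (3.71) and Sec14l1 (-0.78). All of these genes passed in that fit too, but they were named for passing with libraries that it reuses. In that fit 34.4% of 15104 genes passed.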
